A study of Danio rerio with 6 samples.

Results

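Glycolytic enzymes and glucose transporters were examined in acute lymphoblastic leukaemia (ALL) of zebrafish, comparing the side population (SP) with the rest of the sorted tumour cells (nonSP). The genes were taken by symbol: all hexokinase (hk1, hk2), gpi, pfk, aldo, tpi1, gapdh, pgk1, pgam1, eno, pkm, pklr, ldha and ldhb genes, and every slc2a gene, among the deposited gene symbols. The rule matched 49 of 29095 symbols. One of these, pkmyt1, is matched by its letters only: it encodes a kinase that restrains entry into mitosis, and it is left out of all counts below. The other 48 comprised 17 glucose transporter genes, 17 genes of upper glycolysis (hexokinase to triosephosphate isomerase), 11 genes of lower glycolysis (glyceraldehyde-3-phosphate dehydrogenase to pyruvate kinase) and 3 lactate dehydrogenase genes.

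All libraries came from ALL tumours of zebrafish of the clonal strain CG2. Tumours 1404, 1279 and 1314 were each sorted by flow cytometry into SP, by convention the cells that pump out a DNA-binding dye, and nonSP, and each fraction gave 1 RNA library (n = 3 per fraction). What drives the tumours, the age of the fish and whether the tumours arose independently are not stated in the labels, so p-values refer to these 3 pairs only. The p-values also draw much on the spread pooled from other genes. Values below are in the order 1404, 1279, 1314. Libraries held 30213658 to 62398607 counts, and CPM are read counts brought to one library size with TMM factors, a scaling that matches the bulk of genes between libraries. Summed T cell genes reached 679 and 655 CPM in SP and nonSP of tumour 1279 and at most 97.9 CPM in the other tumours, whereas summed B cell genes stood at 92.2 to 223 CPM in those and at most 6.14 CPM in 1279. The lymphocyte recombination gene rag2 was detected in each library, at 30.9, 69.1 and 27.7 CPM in SP and 69.1, 209 and 83.8 CPM in nonSP. In sorted bulk RNA, fewer cells of a type and less RNA per cell cannot be told apart.

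Glycolysis splits glucose into pyruvate in the cytosol. Facilitative transporters of the slc2a family admit the sugar, upper glycolysis spends ATP to phosphorylate and cleave it, lower glycolysis recovers ATP and NADH, and lactate dehydrogenase regenerates NAD from pyruvate. Many steps have several isozymes that differ by tissue, and duplicated genes (a and b copies) are common in zebrafish. Proliferating lymphoid cells, leukaemias among them, are known for high glucose uptake and lactate output.

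Of the 48 genes, 33 had enough counts to be tested, and 5 of them were higher and 2 lower in SP. Those that rose were slc2a1b, hk1, pfkla, aldocb and ldhbb, and those that fell were aldoaa and eno3. A gene was called when edgeR's quasi-likelihood F test, fitted with a term per tumour, gave an adjusted p (Benjamini-Hochberg, over all 15770 tested genes) below 0.05. Among all tested genes 22.4% were called, 13.0% higher and 9.40% lower, and the 21.2% of tested members called lies near that background. The 3 tumours shared the sign of the SP to nonSP ratio for 16 of the 33 members, against 55.1% of all tested genes. SP and nonSP values did not overlap for 4 members (slc2a11l, slc2a13b, pfkla and ldhbb), against 15.2% of tested genes. The remaining 15 genes were too low to test, at 0 to 40 counts in any library. They included pfkmb and slc2a15a, which were at 0 in every library. The rule also names pklr, but no such symbol was among the 49 matched.

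The direction of the falling genes depended on how libraries were scaled. Dividing by library totals in place of TMM factors raised the median log2 fold change over tested genes from 0.09 to 1.15, a shift of 1.07. With totals 21 members were called higher and 0 lower (50.8% and 1.76% of all tested genes), by edgeR, with 0 lower at an unadjusted p below 0.05 too, and the log2 fold changes of aldoaa (0.18) and eno3 (0.09) turned slightly positive. Under both scalings aldoaa and eno3 lay below the median of all tested genes, and slc2a1b, hk1, pfkla, aldocb and ldhbb above it. Changes below are relative to TMM scaling. Ratios between genes within a library, given for the isozymes, do not depend on it.

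**Figure D1:**
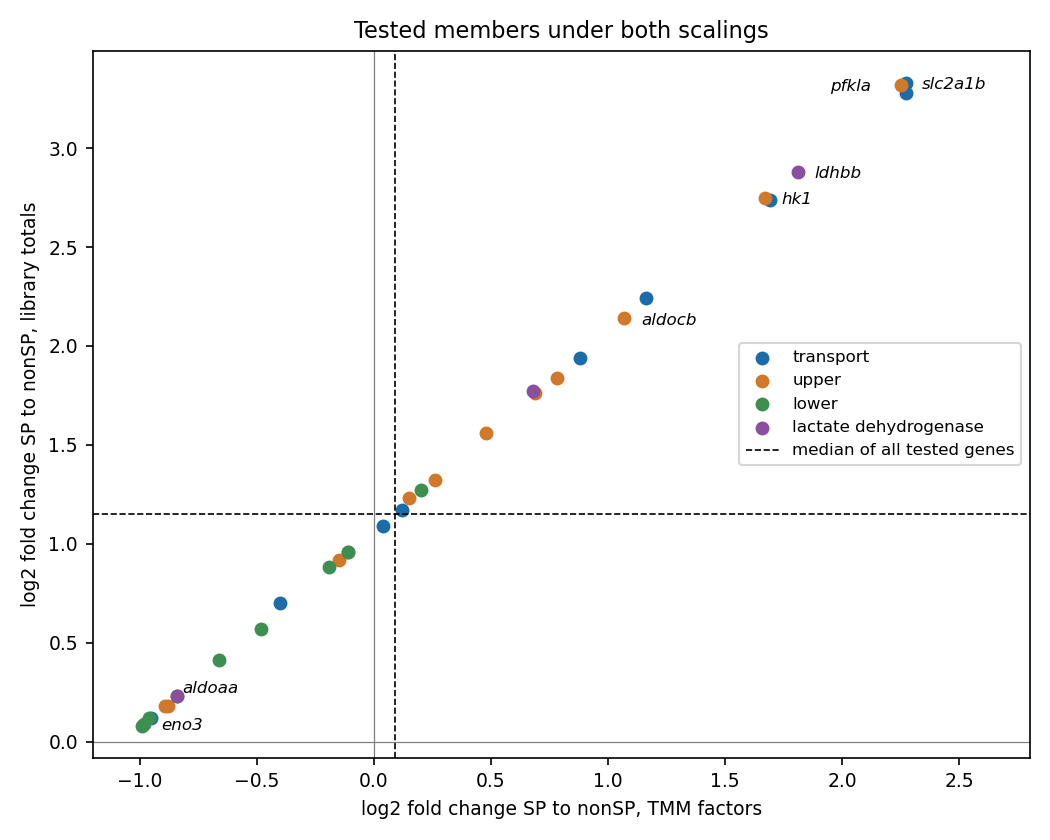
Log2 fold change of each tested member with TMM factors (horizontal axis) and with library totals (vertical axis), coloured by role, with dashed lines at the medians of all tested genes (0.09 and 1.15). All tested members shift by about the same amount, so genes right of the vertical dashed line also lie above the horizontal one.

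**Figure D2:**
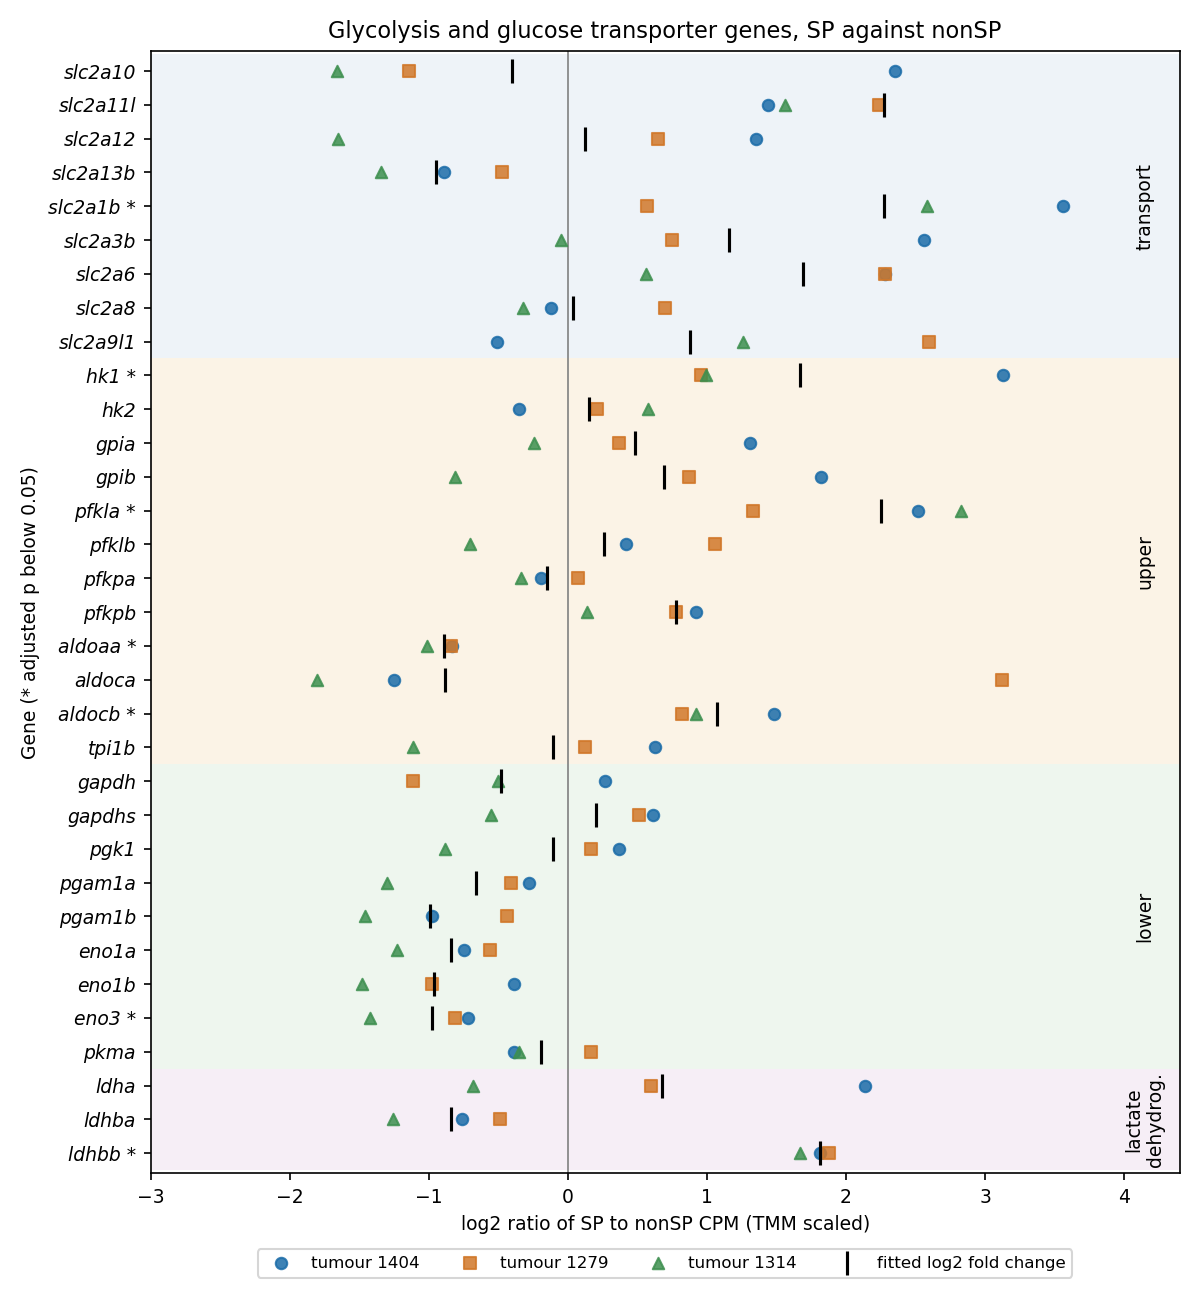
Log2 ratio of SP to nonSP CPM (horizontal axis) in each tumour for the 33 tested members, ordered by role, with the fitted log2 fold change as a bar. Asterisks mark the 7 genes past the threshold. Points of tumour 1314 (triangles) lie at or left of the others for most genes of lower glycolysis.

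Among the glucose transporters slc2a1b was the 1 gene that passed, a gene of the carrier type that supplies red cells and brain in mammals. Its level was 57.8, 52.9 and 31.9 CPM in SP and 4.86, 35.7 and 5.29 CPM in nonSP. It was higher in SP in each tumour, most in 1404 and least in 1279, where nonSP exceeded the SP level of tumour 1314, so that the groups overlap. Its fitted log2 fold change was 2.27 with a standard error of 0.49 (n = 3 pairs, edgeR adjusted p = 0.00213), or 4.81-fold. Later values after ± are such standard errors unless an SD is named. The size rested on the tumours unequally, at 1.46 without 1404 and 3.10 without 1279, and passed in both cases. Its a copy, slc2a1a, had 0 to 22 counts and was not tested.

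slc2a3b, of the transporter type found in mammalian neurons, differed between tumours. It stood at 58.8, 17.1 and 0.532 CPM in SP and 9.96, 10.2 and 0.552 CPM in nonSP. SP was higher in 1404 and 1279, while in 1314 the gene was low in both fractions. The log2 fold change was 1.16 ± 0.45 (edgeR adjusted p = 0.0661), and 0.27 without 1404 and 1.67 (adjusted p = 0.0255) without 1314. slc2a12 showed 20.6, 0.817 and 1.02 CPM in SP and 8.06, 0.508 and 3.29 CPM in nonSP, with no common direction (edgeR adjusted p = 0.9).

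The other 6 tested transporters stayed below 2 CPM in each library. slc2a11l had 17, 26 and 13 counts in SP against 3, 1 and 1 in nonSP, without overlap (log2 fold change 2.27 ± 0.92, edgeR adjusted p = 0.0767). slc2a13b, whose mammalian counterpart carries myo-inositol with protons, had 1.01, 0.725 and 0.501 CPM in SP and 1.9, 1.02 and 1.32 CPM in nonSP, again without overlap but on few counts (edgeR adjusted p = 0.181). slc2a6, slc2a8, slc2a9l1 and slc2a10 were not called either, with log2 fold changes from -0.40 to 1.69. Over the 17 transporter genes, SP summed to 143, 73.5 and 35.9 CPM and nonSP to 28.5, 48.3 and 12.8 CPM. Of these counts slc2a1b held 40.5%, 71.9% and 88.9% (SP) and 17.1%, 73.7% and 41.2% (nonSP), so its share was not higher in SP of 1279. In tumour 1404 slc2a3b held more, at 41.2% in SP and 34.9% in nonSP.

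Upper glycolysis began with a difference in hk1, the widely expressed hexokinase that traps glucose as its phosphate. hk1 stood at 292, 156 and 41.9 CPM in SP and 33.3, 80.2 and 21 CPM in nonSP. It was higher in SP in each tumour, with log2 ratios of 3.13, 0.96 and 0.99, so that tumour 1404 stood apart. hk1 rose by 1.67 ± 0.45 (edgeR adjusted p = 0.0105), or 3.17-fold, and without tumour 1404 stood at 0.86 (adjusted p = 0.0848). hk2, the inducible hexokinase of muscle and tumours in mammals, was at 9.18, 23.2 and 24.2 CPM in SP and 11.7, 20 and 16.1 CPM in nonSP (0.15 ± 0.36, edgeR adjusted p = 0.806). hk1 took 96.9%, 87% and 63.4% of hexokinase counts in SP, against 73.9%, 80% and 56.6% in nonSP, a higher share in each tumour. The isomerase gpia, which converts glucose phosphate to fructose phosphate, had 102, 131 and 69.3 CPM in SP and 41.1, 102 and 81.7 CPM in nonSP and was not called (0.48 ± 0.40, edgeR adjusted p = 0.41). Its low copy gpib was not called.

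Phosphofructokinase commits sugar to glycolysis and is its main control point. pfkla, a liver-type subunit gene, was at 8.67, 11.2 and 5.09 CPM in SP and 1.48, 4.46 and 0.684 CPM in nonSP. All SP values exceeded all nonSP values. pfkla rose by 2.25 ± 0.43 (edgeR adjusted p = 0.000921), or 4.75-fold, the most significant of the members, and passed with each tumour left out (1.94 to 2.73). The platelet-type gene pfkpa took most counts of this step, with 35.4, 38.2 and 26.6 CPM in SP and 40.2, 36.3 and 33.8 CPM in nonSP (-0.15 ± 0.36, edgeR adjusted p = 0.799). The duplicate pfklb was at 12.8, 11.8 and 4.94 CPM in SP and 9.58, 5.64 and 8.03 CPM in nonSP (0.26 ± 0.40, edgeR adjusted p = 0.688). pfkla made up 15.1%, 17.4% and 13.9% of the phosphofructokinase counts of SP, and 2.87%, 9.21% and 1.61% of those of nonSP. The sum of the step moved little, with log2 ratios of 0.16, 0.42 and -0.21. pfkpb, the platelet-type duplicate, reached 3.42 CPM and was not called (0.78 ± 0.57). The muscle-type genes pfkma and pfkmb had at most 7 counts.

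Aldolase, which cleaves the sugar into triose phosphates, held a pair of genes that moved in opposite directions. aldocb, a copy of the aldolase C gene of mammalian brain, was at 1004, 206 and 75.1 CPM in SP and 361, 117 and 39.7 CPM in nonSP. aldoaa, a copy of the aldolase A gene of muscle and most mammalian tissues, was at 901, 311 and 244 CPM in SP and 1603, 555 and 491 CPM in nonSP. In each tumour SP was higher for aldocb and lower for aldoaa, although tumours differ so widely in level that the groups overlap. aldocb rose by 1.07 ± 0.35 (edgeR adjusted p = 0.0296). aldoaa fell by 0.89 on the log2 scale (SE 0.30, edgeR adjusted p = 0.0319), with near equal ratios of -0.83, -0.84 and -1.01, and turned to 0.18 with library totals.

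Both aldolase calls are close to the threshold. aldocb did not pass without 1404 (0.75, adjusted p = 0.135), 1279 (1.22, 0.0587) or 1314 (1.15, 0.137), nor aldoaa without 1279 (-0.90, adjusted p = 0.0631) or 1314 (-0.83, 0.279). The make-up of the step does not depend on the scaling of libraries: within SP, aldocb took 52.6%, 39.9% and 23.5% of aldolase counts, and within nonSP 18.3%, 17.4% and 7.45%. The log2 ratio of aldocb to aldoaa counts was higher in SP by 2.31, 1.65 and 1.93, a mean of 1.96 ± 0.33 (SD, n = 3). This pair was chosen after its values were seen. The ratio was higher in 3 of 3 tumours, as it had to be once 1 gene rose and the other fell in each. An exact two-sided sign-flip test could thus only give p = 0.25, the smallest that 3 pairs allow, and adds no support. The sum of the step had log2 ratios of -0.05, -0.38 and -0.74. aldoca was not called, and aldoab had 0 to 3 counts.

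tpi1b, which interconverts the triose phosphates, closed upper glycolysis with 530, 195 and 114 CPM in SP and 341, 179 and 247 CPM in nonSP. It was higher in SP in 1404 and 1279 and lower in 1314 (-0.11 ± 0.39, edgeR adjusted p = 0.869). Of the 12 tested genes of upper glycolysis, 3 rose, 1 fell and 8 did not pass, with a median log2 fold change of 0.37 against 0.09 for all tested genes.

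**Figure D3:**
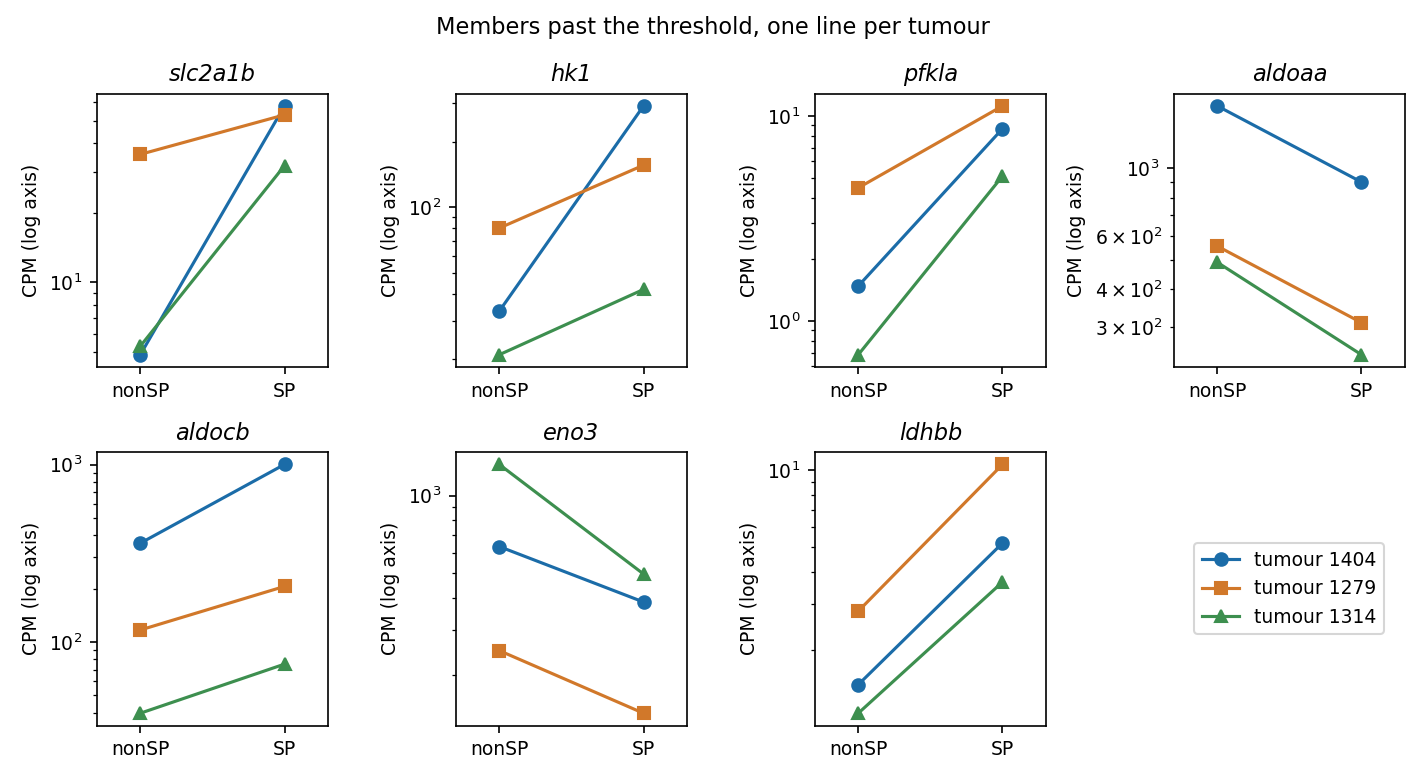
CPM (log axis) of the 7 members past the threshold in the nonSP and SP libraries, with 1 line per tumour. All lines rise for slc2a1b, hk1, pfkla, aldocb and ldhbb and fall for aldoaa and eno3, and for pfkla and ldhbb each SP value lies above each nonSP value.

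In lower glycolysis eno3 was the 1 gene that passed, and it fell. eno3, an enolase gene whose mammalian counterpart serves muscle, was at 385, 142 and 495 CPM in SP and 633, 249 and 1322 CPM in nonSP. SP was lower in each tumour, with ratios of -0.72, -0.81 and -1.42. eno3 fell by 0.98 on the log2 scale (SE 0.32, edgeR adjusted p = 0.0274), stood at -0.76 (adjusted p = 0.372) without tumour 1314 and at 0.09 with library totals. Since eno3 is a muscle gene in mammals, muscle markers were read beside it: pvalb1 had 0 counts and ckma at most 0.0441 CPM. The muscle list summed to 39.8, 72.8 and 77.9 CPM in SP, mostly neb and ttna, and to 8.46, 32.6 and 10.7 CPM in nonSP. Against 13.0% higher and 9.40% lower among all tested genes, 2 of its 8 tested genes rose and 0 fell. These were neb (2.93 ± 0.47, edgeR adjusted p = 0.000168) and ttna (2.77 ± 0.53, edgeR adjusted p = 0.000843). In every library 14 of the 20 listed genes were below 1 CPM.

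The widely expressed enolase gene eno1a followed eno3 closely, at 186, 56.8 and 367 CPM in SP and 313, 83.5 and 859 CPM in nonSP (-0.84 ± 0.35, edgeR adjusted p = 0.0777). eno1b, its low copy, was at 4.02, 3.53 and 9.41 CPM in SP and 5.29, 7 and 26.3 CPM in nonSP, a log2 fold change of -0.96 ± 0.38 (edgeR adjusted p = 0.0712). Missing the threshold in edgeR, they passed it by DESeq2 (adjusted p = 0.0346 and 0.0348) and by limma voom (0.0357 and 0.0362), and both were slightly positive with library totals (0.23 and 0.12). In contrast to aldolase, the make-up of the enolase step was much alike in both fractions, with eno3 holding 66.9%, 70.1% and 56.8% within SP and 66.6%, 73.3% and 59.9% within nonSP.

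The mutases pgam1a and pgam1b, which move the phosphate group within phosphoglycerate, lay lower in SP in each tumour without passing in edgeR over the 3 tumours. pgam1a was at 523, 250 and 98.1 CPM in SP and 634, 333 and 241 CPM in nonSP (-0.66 ± 0.35, edgeR adjusted p = 0.173), at -0.97 (adjusted p = 0.0457) without tumour 1404 and at 0.41 with library totals. pgam1b was at 6.4, 1.45 and 3.05 CPM in SP and 12.7, 1.97 and 8.43 CPM in nonSP, a log2 fold change of -0.99 ± 0.40 (edgeR adjusted p = 0.0739). It passed by DESeq2 (-1.07, adjusted p = 0.034), missed by limma voom (-1.03, 0.0512) and was at 0.08 with library totals.

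The oxidising step was carried by counts of gapdhs, which is named after a sperm isozyme of mammals: 664, 608 and 174 CPM in SP and 434, 426 and 255 CPM in nonSP (0.20 ± 0.34, edgeR adjusted p = 0.716). The gene named gapdh, a common reference gene elsewhere, had 31, 14 and 8 counts in SP against 16, 9 and 6 in nonSP. Reads of similar copies may be divided between them by the counting, so the split of this step is uncertain. pgk1, the first ATP-producing enzyme, was at 535, 334 and 240 CPM in SP and 414, 297 and 441 CPM in nonSP (-0.11 ± 0.35, edgeR adjusted p = 0.857). pkma, a pyruvate kinase gene of the muscle and tumour type, was at 283, 260 and 69.2 CPM in SP and 372, 232 and 88 CPM in nonSP (-0.19 ± 0.36, edgeR adjusted p = 0.742), while pkmb had 3 to 14 counts. None of gapdhs, pgk1 and pkma kept 1 direction over the tumours.

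Of the 9 tested genes of lower glycolysis, 0 rose, 1 fell and 8 did not pass in edgeR. At an unadjusted p below 0.05, 0 were higher and 4 lower. Called lower were 4 by DESeq2 and 3 by limma voom, and neither tool called any higher. Of all 15770 tested genes, 3293 were higher and 2405 lower at an unadjusted p below 0.05 in edgeR. DESeq2 called 1999 of them higher and 1992 lower, and limma voom 2143 higher and 1788 lower. The median log2 fold change of lower glycolysis was -0.66, against 0.37 in upper glycolysis and 0.09 in all tested genes. Level differs between these groups, and abundant genes as a class lay lower in SP: among 988 tested genes with an average log2 CPM of at least 6, the median was -0.30, 14.7% were higher and 28.4% lower. Of the 13 members above that level 2 were higher and 2 lower, with a median of -0.11.

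Upper and lower glycolysis were next set against each other within each library, where scaling cancels. The ratio of lower to upper glycolysis counts was 0.892, 1.52 and 2.4 in SP against 1.15, 1.48 and 3.44 in nonSP. On the log2 scale SP differed from nonSP by -0.37, 0.04 and -0.52, a mean of -0.28 ± 0.29 (SD, n = 3), which is no larger than the spread between tumours. Aldolase was the largest step of the upper sum in each library, and its pair of main genes moved apart. Without aldolase and triosephosphate isomerase, the difference was -1.86, -0.56 and -1.25, lower in SP in 3 of 3 tumours. The upper sum then held only hexokinase, glucose-6-phosphate isomerase and phosphofructokinase. In tumour 1404 these stood at 301, 104 and 57.6 CPM in SP and 45.1, 41.5 and 51.6 CPM in nonSP. The value of 1404 thus largely repeats the rise of hk1, from 33.3 to 292 CPM. In SP of 1314 hexokinase was not the largest of these steps (66.1, 69.4 and 36.7 CPM). The mean log2 CPM of tested members, which weights genes equally, differed by -1.05, -1.12 and -0.97. The choice of summary thus sets the size of the shift, and no test was made of these scores.

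Summed by step, hexokinase (log2 ratios 2.74, 0.84 and 0.83) and transport (2.32, 0.61 and 1.48) were higher in SP in each tumour. Enolase (-0.73, -0.75 and -1.34), phosphoglycerate mutase (-0.29, -0.41 and -1.31) and aldolase were lower in each. The 7 other steps, lactate dehydrogenase included, changed direction between tumours.

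**Figure D4:**
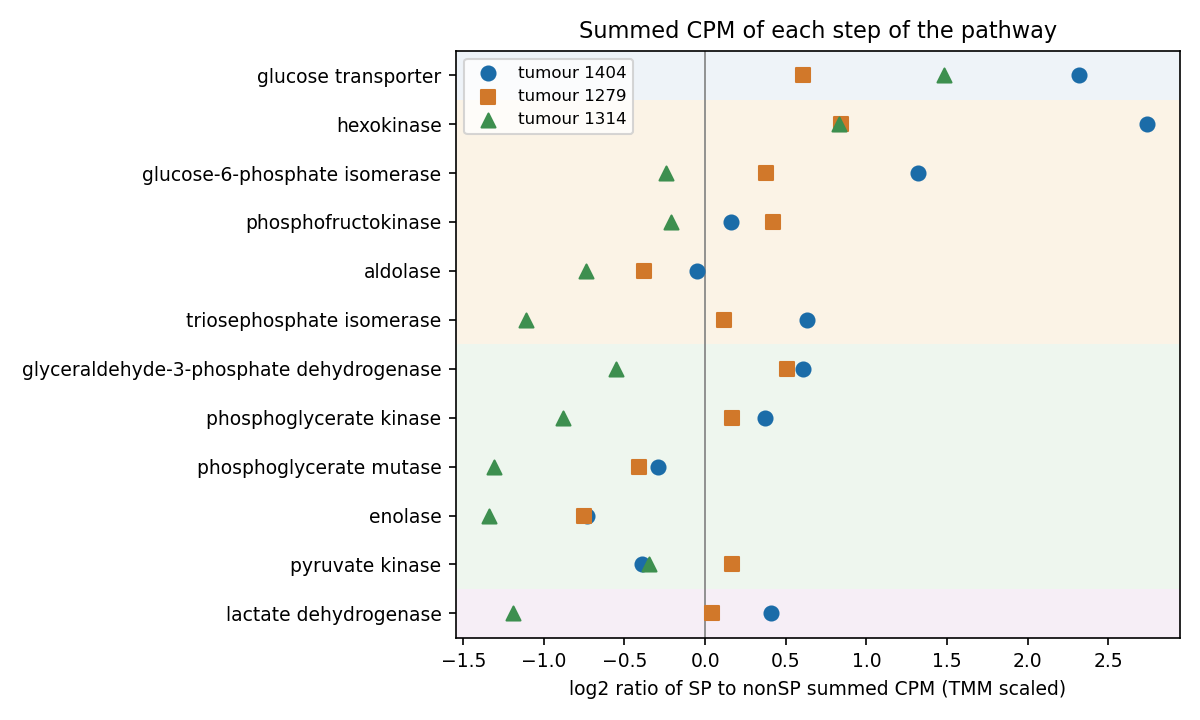
Log2 ratio of SP to nonSP summed CPM (horizontal axis, TMM scaled) for glucose transport, the enzyme steps and lactate dehydrogenase, with 1 point per tumour. Transport and hexokinase lie right of 0 in each tumour, and aldolase, phosphoglycerate mutase and enolase left of it.

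Lactate dehydrogenase joins subunits of an A type, common in muscle, and a B type, common in heart. ldha was at 659, 233 and 67.6 CPM in SP and 150, 154 and 109 CPM in nonSP. It was higher in SP in 1404 and 1279 and lower in 1314, with ratios of 2.14, 0.60 and -0.68. Its log2 fold change of 0.68 ± 0.45 (edgeR adjusted p = 0.288) became -0.16 without tumour 1404. ldhba, a B-type gene, was at 370, 190 and 463 CPM in SP and 627, 266 and 1111 CPM in nonSP, lower in SP in each tumour (-0.84 ± 0.32, edgeR adjusted p = 0.0585). The threshold was met by DESeq2 (-0.92, adjusted p = 0.0379) and by limma voom (-0.88, 0.0327), and the value was 0.23 with library totals.

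The other B-type copy, ldhbb, was counted less often and moved in the other direction. It had 5.19, 10.5 and 3.66 CPM in SP and 1.46, 2.82 and 1.13 CPM in nonSP. The groups do not overlap, and the ratios of 1.81, 1.88 and 1.67 were nearly equal. ldhbb rose by 1.81 ± 0.41 (edgeR adjusted p = 0.00327), or 3.5-fold, and passed with each tumour left out. It remained a small part of the step, at 0.502%, 2.42% and 0.686% of its counts in SP and 0.187%, 0.666% and 0.0922% in nonSP. ldha took 63.8%, 53.8% and 12.7% of the counts in SP and 19.2%, 36.4% and 8.9% in nonSP, a higher share in each tumour by 44.5, 17.4 and 3.76 percentage points.

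**Figure D5:**
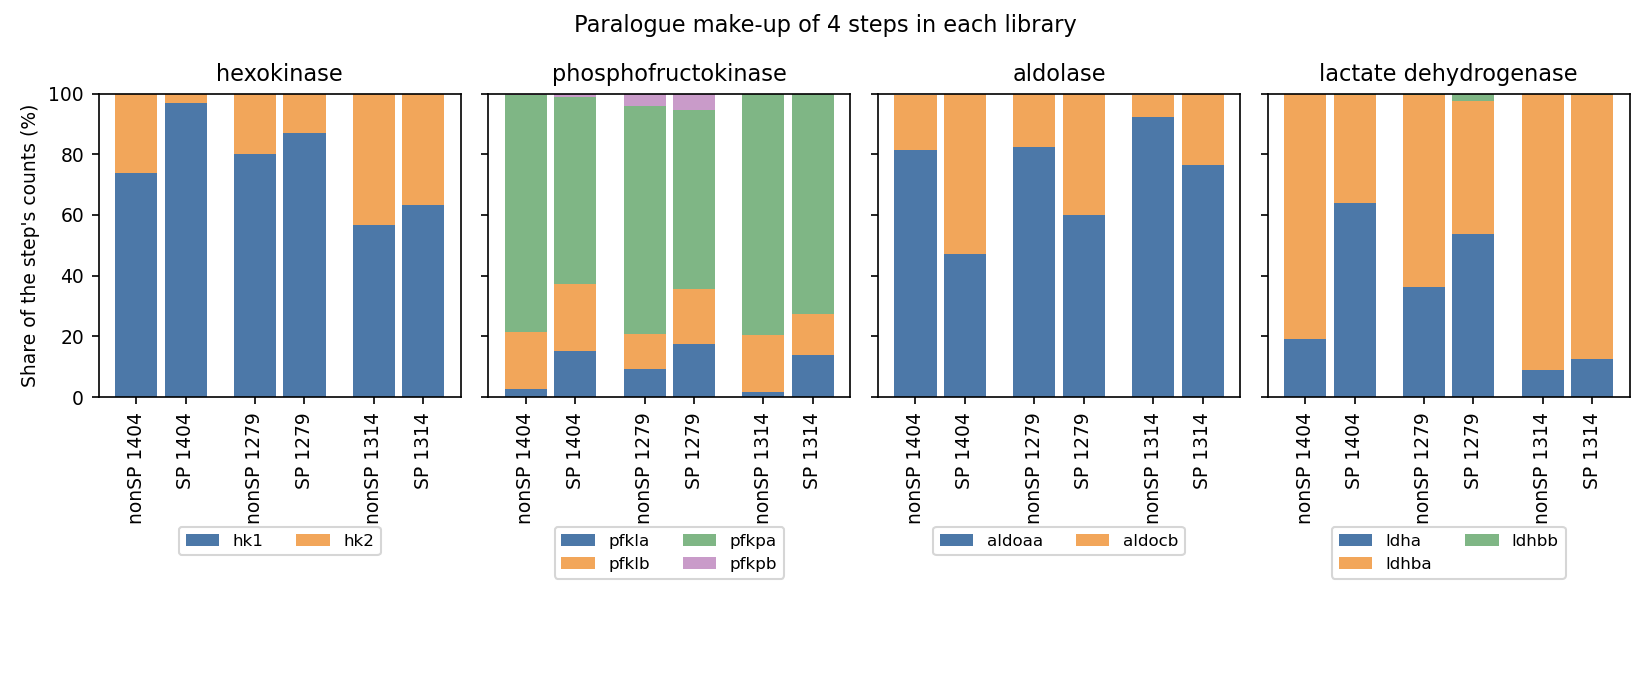
Share of each step's counts (%) taken by each paralogue in the nonSP and SP library of each tumour, for genes reaching 1% in any library. hk1, pfkla, aldocb and ldha each take a higher share in SP than in nonSP of the same tumour, aldocb with 52.6%, 39.9% and 23.5% in SP against 18.3%, 17.4% and 7.45%.

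Tumours differed among themselves in which isozymes they used. Tumour 1314 had the highest CPM of eno3, eno1a and ldhba in each fraction, and tumour 1404 those of aldoaa, aldocb and pgam1a. Tumour 1314 also differed in direction: 9 members (slc2a12, slc2a3b, gpia, gpib, pfklb, tpi1b, gapdhs, pgk1 and ldha) were higher in SP of 1404 and 1279 and lower in SP of 1314. Among all tested genes 8.98% showed this pattern, and 13.2% of those with an average log2 CPM of at least 6. Of the 9 members 5 were at that level, and slc2a3b was nearly equal in both fractions of 1314 (log2 ratio -0.05). The pattern was chosen after the values were seen, and each tumour is a single pair. Median ratios over the tested members were 0.42, 0.51 and -0.55, against 0.00, 0.26 and -0.00 over all tested genes. Abundant genes as a class were also low in 1314: those at an average log2 CPM of at least 6 had medians of -0.10, -0.13 and -0.72, and the 13 members at that level 0.37, 0.17 and -0.88. As a share of each library's total counts, without TMM factors, the 48 genes together held 0.803%, 0.468% and 0.462% (SP) against 0.415%, 0.188% and 0.442% (nonSP). With library totals the median log2 fold change over all tested genes was itself 1.15, so higher shares in SP are not particular to these genes.

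Markers of lymphoblasts and of other cells also differed between the fractions. The counts called below stand beside 13.0% higher and 9.40% lower among all tested genes. The lymphoblast list was lower in SP in each tumour, at 216, 376 and 107 CPM against 349, 724 and 271 CPM, and 2 of its 6 tested genes fell. These were rag2 (-1.45 ± 0.38, edgeR adjusted p = 0.00841) and ptprc, the pan-leukocyte surface phosphatase (-1.14 ± 0.37, edgeR adjusted p = 0.0302), which did not pass with library totals (-0.38 and -0.07). Tested members lower in each tumour too were aldoaa, eno3, pgam1a, pgam1b, eno1a, eno1b, ldhba and slc2a13b. A shared direction over the 3 tumours was found for 55.1% of all tested genes. Not every listed lymphoblast gene was lower in each tumour: SP was higher for rag1 in 1314 (2.86 against 1.65 CPM) and myca in 1404 (72.4 against 65.1 CPM). The same held for il7r, which was not tested, in 1279 (25 against 19.1 CPM). The neutrophil list summed to 671, 112 and 20.7 CPM in SP and 297, 61.6 and 7.83 CPM in nonSP. Of its 5 tested genes 2 were higher (mpx and srgn), and 3 of 8 listed genes were below 1 CPM in every library. These sums were mostly mmp9 (353, 13.2 and 10.6 CPM in SP) and srgn (217, 94.4 and 6.51 CPM in SP). mpx was at 37.3, 3.55 and 3.12 CPM in SP. The order of the list over tumours, highest in 1404 and lowest in 1314, is that of hk1, aldocb, ldha and slc2a3b in SP. Other members shared this order in SP, among them slc2a1b, tpi1b, gapdhs, pgk1, pgam1a, pkma and aldoaa, the last of which fell. In nonSP the list, aldocb, aldoaa, pgam1a, gapdhs and pkma kept this order, while hk1, ldha and slc2a3b were highest in 1279. For ldha (154 against 150 CPM in 1404) and slc2a3b (10.2 against 9.96 CPM) the margin was narrow. How many of all tested genes share this order was not counted. lyz, a defining neutrophil gene, was at most 1.35 CPM. Fibroblast genes summed to 27.3, 14.6 and 9.71 CPM in SP and 5.36, 4.63 and 6.42 CPM in nonSP, and 2 of 3 tested rose, dcn (8.07-fold) and lum (11-fold). The third, the collagen gene col1a1b, was at 0.18 ± 0.54, and 5 of 9 listed fibroblast genes were below 1 CPM in every library. Liver genes summed to 8.04, 10.8 and 5.07 CPM in SP and 2.8, 4.17 and 0.662 CPM in nonSP, and 2 of 3 tested rose, tfa and apoa1b. Of the 10 listed liver genes 8 were below 1 CPM in every library. Summed macrophage markers were at 78, 13.5 and 199 CPM in SP and 81.4, 9.99 and 357 CPM in nonSP, and 0 of 3 tested were called by edgeR, DESeq2 or limma voom (0 at an unadjusted p below 0.05 in edgeR). These sums were nearly all cd74a and cd74b, and 7 of 9 listed macrophage genes were below 1 CPM in every library, mpeg1.1 at most 0.104 CPM. Both cd74 genes were lowest in 1279, as were the summed B cell genes, so these sums cannot be assigned to macrophages. The part of such cells in the results above was not tested.

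Genes around glycolysis were called in both directions. The counts per list stand beside 22.4% of all tested genes called in edgeR, 13.0% higher and 9.40% lower. No list was tested as a set. In the pentose phosphate pathway, which draws glucose phosphate off for NADPH and ribose, 1 of 10 tested genes fell. This was pgls, a lactonase, at 0.964, 1.46 and 3.32 CPM in SP and 3.48, 14 and 7.61 CPM in nonSP. It fell by 2.08 on the log2 scale (SE 0.45, edgeR adjusted p = 0.00227), without passing when 1279 was left out (-1.50, adjusted p = 0.0774) or with library totals (-1.02, 0.0629). tktb, the transketolase that returns sugars to glycolysis, was at -0.02 ± 0.33 (edgeR adjusted p = 0.98).

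Among 13 tested regulators and further isozymes, 1 rose and 0 fell in edgeR, as in DESeq2 and limma voom, with 1 lower in edgeR at an unadjusted p below 0.05. The gene that rose was pfkfb2a, an enzyme that makes and degrades the main activator of phosphofructokinase. It was at 5.06, 8.6 and 6.57 CPM in SP and 1.13, 3.27 and 0.949 CPM in nonSP, with no overlap. pfkfb2a rose by 2.11 ± 0.44 (edgeR adjusted p = 0.00158) and passed with each tumour left out (1.78 to 2.49). Its relatives pfkfb1, pfkfb3, pfkfb4a and pfkfb4b lay between 0.42 and 1.09 and were not called. The duplicate pfkfb2b was not called either (0.35 ± 0.53, edgeR adjusted p = 0.67), with SP lower in 1404 (4.71 against 7.75 CPM). txnipa, of a family that restrains glucose uptake in mammals, was at -0.04 ± 0.38 (edgeR adjusted p = 0.958).

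In lactate and pyruvate transport, 0 of 5 tested genes were called in edgeR, DESeq2 or limma voom (1 in edgeR at an unadjusted p below 0.05). The lactate exporter gene slc16a3 came closest, at 68.8, 5.07 and 14.7 CPM in SP and 14.3, 3.39 and 10.6 CPM in nonSP (1.11 ± 0.41, edgeR adjusted p = 0.0515). The mitochondrial pyruvate carrier genes mpc1 and mpc2 were at -0.77 ± 0.38 and -0.48 ± 0.37.

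Of 24 tested genes of glycogen and hexose branches, 2 rose and 4 fell, against 13.0% and 9.40% of all tested genes. pygmb, a glycogen phosphorylase gene, had nonSP levels of 7.05, 0.451 and 0.353 CPM and SP levels of 45.2, 1.87 and 0.95 CPM (2.11 ± 0.43, edgeR adjusted p = 0.00154). pgm2, a phosphoglucomutase family gene, rose by 2.01 ± 0.49 (edgeR adjusted p = 0.00544), and neither passed without tumour 1404 (1.60 and 1.06, edgeR adjusted p = 0.0719 and 0.0923). khk, which starts fructose breakdown, fell by 2.01 on the log2 scale (SE 0.38, edgeR adjusted p = 0.000737), with SP levels of 5.6, 1.02 and 8.89 CPM and nonSP levels of 17.3, 4.68 and 41.3 CPM. It was the one falling gene here that also passed with library totals (-0.94, adjusted p = 0.0476).

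The glycerol phosphate dehydrogenase genes gpd1b and gpd1c, which divert triose phosphate to lipid backbones, changed by -1.78 ± 0.40 and -1.40 ± 0.47, and ugp2b, which makes UDP-glucose, by -1.17 ± 0.42 (edgeR adjusted p = 0.00311, 0.0325 and 0.0435). gpd1c and ugp2b did not pass without 1279 (-1.51 and -1.33) or 1314 (-0.70 and -0.63). In gluconeogenesis, the reverse route, 1 of 7 tested genes fell and 0 rose in edgeR, as in DESeq2 and limma voom, with 2 higher in edgeR at an unadjusted p below 0.05. fbp1a, which opposes phosphofructokinase, changed by -1.43 ± 0.38 (edgeR adjusted p = 0.00888), and by -1.29 (adjusted p = 0.0829) without 1314. With library totals gpd1b (-0.70), gpd1c (-0.33), ugp2b (-0.11) and fbp1a (-0.37) did not pass.

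pkmyt1, which the symbol rule matched, was lower in SP, at 1.35, 1.26 and 2.55 CPM against 3.34, 2.37 and 16 CPM in nonSP (-1.65 ± 0.44, edgeR adjusted p = 0.0106). It did not pass without tumour 1314 (-1.11, adjusted p = 0.24) or with library totals (-0.58, 0.315).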

How the data were processed

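The authors deposited raw counts per gene symbol, 1 table per library, for 6 libraries. The submitters' processing notes name build GRCz10 and STAR 2.5.1b, featureCounts 1.28.1, Cufflinks 2.2.1, DESeq 1.30.0 and edgeR 3.20.7. What each tool did, the annotation release and strand use are not given there, so overlapping and antisense genes, and near-identical copies, cannot be separated with certainty. No gene lengths were applied, so shares of counts, ratios between genes and the ranking or summing of steps also reflect transcript length.

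Testing used edgeR 4.0.16 under R 4.3.3 (filterByExpr with minimum count 10 and minimum total 15, TMM, robust glmQLFit and glmQLFTest). The SE is the log2 fold change divided by the square root of F, and draws much on the pooled dispersion of other genes (23.2 prior degrees of freedom). Ratios per tumour used a prior count of 2. Tumour was a block because both fractions with a number come from 1 tumour. Deviations from group means correlated at 0.753, 0.839 and 0.818 within tumours and from -0.485 to -0.274 between them. All libraries differed beyond counting error (chi-square divided by its degrees of freedom, 300 to 1050).

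The members, lists and tests were chosen with earlier results of these data known. Values per library are given for members past the threshold and those reaching 10 CPM, and for some of the pathway genes past it. Alternatives were DESeq2 1.42.0, limma 3.58.1 voom with quality weights, other scalings, other filters (the stricter one 10 counts in 3 samples and an average log2 CPM of 3), no block, each tumour left out and an adjusted p of 0.1. Some genes of these lists are not reported here.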

Additional observations from a re-analysis of the deposited data

How the results depend on the processing

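The members called higher numbered 21 with library totals, 3 with the stricter filter (which no longer tests pfkla and ldhbb), 0 without the replicate block and 3 to 5 with a tumour left out. Those called lower numbered 0 with library totals, 6 in DESeq2, 5 in limma voom, 6 at an adjusted p below 0.1, 0 without the block and 0 to 5 with a tumour left out. Over all 15770 tested genes, DESeq2 called 1992 lower and limma voom 1788. Other pathway genes called numbered 32 with library totals, 0 without the block and 7 to 8 with a tumour left out. Without the block edgeR called 0 of all tested genes (1251 at an unadjusted p below 0.05, of which 3 members, all higher). The lower-to-upper difference was -1.05 as a mean of log2 CPM, -1.22 without aldolase and triosephosphate isomerase, and -0.44 to -0.16 with a tumour left out. aldocb missed the threshold with RLE factors (0.99, adjusted p = 0.0512).

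With library totals the sign turned for slc2a10 (0.70), slc2a13b (0.12), pfkpa (0.92), aldoaa (0.18), aldoca (0.18), tpi1b (0.96), gapdh (0.57), pgk1 (0.96), pgam1a (0.41), pgam1b (0.08), eno1a (0.23), eno1b (0.12), eno3 (0.09), pkma (0.88) and ldhba (0.23), since all genes shift together. Small values turned for slc2a8 with RLE factors (-0.04), upper-quartile factors (-0.02) and DESeq2 (-0.04), for slc2a12 in limma voom (-0.04) and for tpi1b without the block (0.13). With a tumour left out, values crossed 0 for slc2a10 (-1.69 to 0.62), slc2a12 (-0.79 to 1.1), slc2a8 (-0.22 to 0.24), hk2 (-0.07 to 0.29), gpia (-0.05 to 0.84), gpib (-0.03 to 1.37), pfklb (-0.12 to 0.74), tpi1b (-0.61 to 0.38), gapdhs (-0.13 to 0.57), pgk1 (-0.47 to 0.27) and ldha (-0.16 to 1.37), none of them called. Depth limits genes below about 1 CPM, where few counts stand behind each ratio.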
